A study of Mus musculus with 56 samples.

Results

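The liver response to NTS-1 at 16 h was read by setting the arrays titled for NTS-1 at 16 h against those titled for vehicle at 16 h, 7 of the 56 arrays of the series. NTS-1 is a locked nucleic acid (LNA) gapmer that the labels call non-toxic. No source used here gives its sequence or its target. Each array held liver RNA of 1 male CD-1 mouse, an outbred strain, aged 6 to 8 weeks at dosing. The 4 NTS-1 mice had received 25 mg/kg under the skin once, and the 3 vehicle mice Dulbecco's phosphate buffered saline. Per the labels' protocols 10 mice per group and time were dosed, and the 3 or 4 livers that ranked highest for a minor hepatic hypertrophy score were profiled. The 7 arrays therefore do not represent all dosed mice. The further groups used were NTS-1 and vehicle at 8 h (3 arrays each), the gapmer TS-2 at 16 h (3 arrays), which the labels call toxic, and HTS-3 at 16 h (4 arrays), which they call severely toxic, all gapmers at 25 mg/kg.

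A gapmer is a short antisense strand whose LNA ends grip the target RNA while a DNA stretch in the middle lets RNase H cut it. Synthetic nucleic acids can also be met by receptors for foreign nucleic acid, which start the making of type I interferon. Interferon binds a receptor found on nearly all cells, and the factor ISGF3, to which STAT2 and IRF9 belong, then turns on a large set of antiviral genes. IRF7, one of these, in turn switches on interferon genes.

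Values are array intensities on a linear scale, with a floor at 4.56, and a gene under 32 is called dim. Between 32.7% and 32.9% of probe sets reached 32 on each of the 7 arrays. Correlations between arrays of a group ran from 0.980 to 0.987 for NTS-1 and from 0.968 to 0.986 for vehicle. Hepatocyte markers, such as albumin and apolipoproteins, had a mean log2 level of 15.1 to 15.2 on the NTS-1 arrays and 14.9 to 15.2 on the vehicle arrays. Vehicle replicate 1 stood apart. Of 8958 genes that reached 32 on a vehicle array, 560 differed at least 2-fold between it and the mean of the other vehicle arrays, against 371 for vehicle replicate 2 and 244 for vehicle replicate 3. Neutrophil markers had a mean log2 level of 6.71 on it, against 2.92 and 3.08 on vehicle replicates 2 and 3. The counts of calls against vehicle, and some of the genes whose call it changed, are therefore given with it and without it.

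At 16 h most of the genes that rose after NTS-1 were genes that interferon is known to induce. Of 11431 genes tested, 24 (0.21%) rose and 2 (0.0175%) fell at an adjusted p under 0.05, and 20 of the 24 belong to 7 lists of interferon-related genes. Those lists were chosen with earlier results of these data known, so the overlap is not independent of the data. They name 104 genes, of which 93 were measured and 85 passed the filter on low values. Over the 85, the median log2 change was 0.86, against -0.00 over all genes tested. The arrays of the NTS-1 group lay wholly above the vehicle arrays for 51 of the 85 (60%), where all genes tested gave 206 (1.8%). None of the 85 fell or lay wholly lower. A total of 479 genes had an unadjusted p under 0.05. Mean log2 level over the 93 measured members was 8.16, 8.46, 8.08 and 8.27 on the NTS-1 arrays, and 7.43, 7.04 and 7.27 on the vehicle arrays. The groups did not overlap, and vehicle replicate 1 was the highest vehicle array. Without it the median was 1.00 and 21 members passed. The count of members that passed was 11 without vehicle replicate 2 and 13 without NTS-1 replicate 2. The calls rest on a spread estimated over all 11 groups of single-dose arrays. In a fit of the 7 arrays alone 4 genes passed, of which Ifit2 and Gbp7 were higher and Myl9 and Ldb2 lower. Ldb2 is outside the rule for naming genes and was named after its values were seen.

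**Figure D1:**
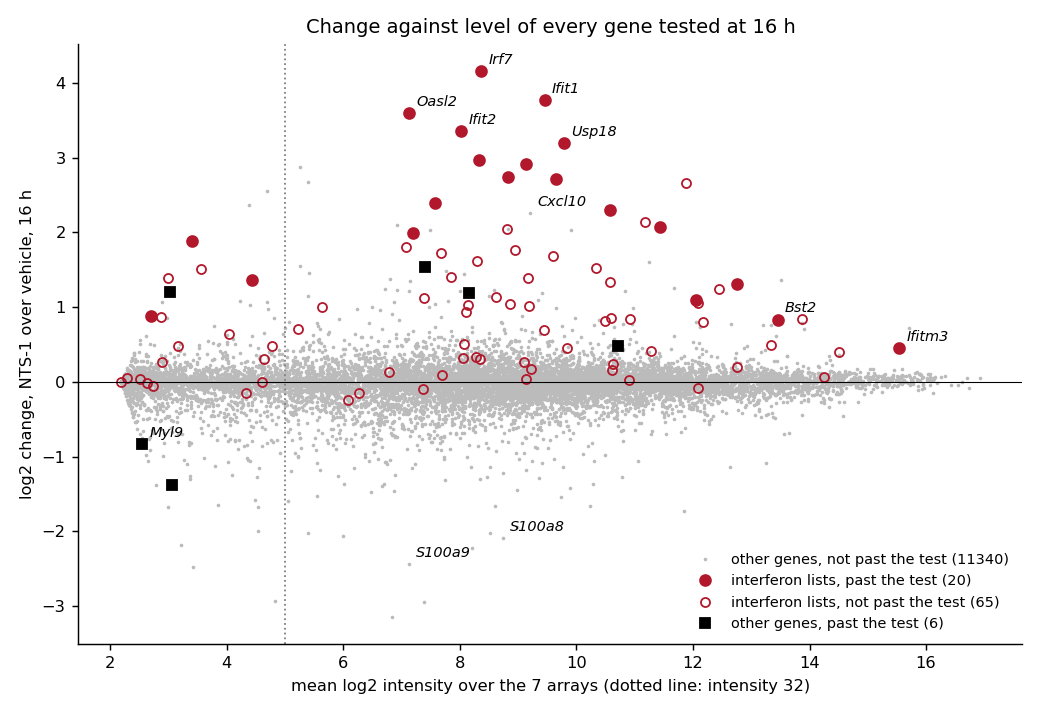
Log2 change of NTS-1 over vehicle at 16 h (vertical axis) against mean log2 intensity over the 7 arrays (horizontal axis) for each of the 11431 genes tested. Filled red points are the 20 interferon list members past the test, open red points the other members tested, and black squares the other genes past the test.

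Irf7, the master factor of the interferon genes, changed most. It read 1532, 1418, 624 and 1233 in NTS-1 livers, against 86.1, 35.0 and 86.1 in vehicle livers. All 4 NTS-1 arrays lay far above all 3 vehicle arrays. Vehicle replicates 1 and 3 tied exactly at 86.08. Exact ties recur in other genes, as for Slfn9 at 30.24 on all 3 vehicle arrays of 16 h, so this tie is no measure of agreement. The fold was 17.8 (log2 change 4.16 ± 0.38 SE, adjusted p = 1.24e-07). The other members of the list of interferon signal and transcription factors did not pass. Of its 12 members that passed the filter, 1 rose, and the median log2 change was 0.07. Irf9, the DNA-binding part of ISGF3, read 866, 1074, 696 and 840 in NTS-1 livers, against 633, 258 and 924 in vehicle livers, so that the groups overlapped (log2 change 0.69 ± 0.39, adjusted p = 1). Stat2, its partner, was near the dim limit in both groups, with a log2 change of 0.48 ± 0.34. Irf1, which answers mostly to interferon gamma, had a log2 change of 0.17 ± 0.41, and Ifnar1, a receptor chain, one of -0.25 ± 0.27. The interferons themselves gave no reading: Ifnb1, Ifna4 and Ifng lay at or near the floor on all 7 arrays, which sets only a bound.

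The sensors of foreign nucleic acid gave 1 call among 14 members tested, with 6 (42.9%) wholly higher in NTS-1 and a median of 0.31. Of all genes tested 1.8% lay wholly higher. Dhx58, the cytosolic RNA sensor LGP2, read 322, 663, 218 and 478 in NTS-1 livers, against 82.7, 77.0 and 62.4 in vehicle livers. Its groups were well apart, by 5.25-fold (log2 change 2.39 ± 0.32, adjusted p = 7.71e-05). A second probe set of Dhx58 reached 32 on 4 of 4 NTS-1 arrays and on 0 of 3 vehicle arrays, and the remaining one lay at the floor. Zbp1, a sensor of Z-form nucleic acid, read 1067, 592, 824 and 898 in NTS-1 livers, against 330, 121 and 200 in vehicle livers. The groups did not overlap, but the change of 2.05 ± 0.60 did not pass (adjusted p = 0.345). Ddx58, which encodes the RNA sensor RIG-I, was also wholly higher in NTS-1 without passing (log2 change 1.14 ± 0.29, adjusted p = 0.146). The same held for Ifih1, which encodes MDA5 (0.81 ± 0.40, adjusted p = 1), and for Eif2ak2, the kinase PKR (1.12 ± 0.54, adjusted p = 1).

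The Ifit genes, whose proteins bind viral RNA and limit its translation, rose by the largest amounts as a list, with 3 of 5 members past the test and a median log2 change of 2.91. Ifit1 read 1498, 4481, 1448 and 2197 in NTS-1 livers, against 238, 78.0 and 212 in vehicle livers. The lowest NTS-1 array was far above the highest vehicle array, and the NTS-1 arrays differed among themselves by about as much as the vehicle arrays did. Its fold was 13.6 (log2 change 3.77 ± 0.78, adjusted p = 0.0215). Ifit2 read 609, 939, 676 and 629 in NTS-1 livers, against 86.0, 54.1 and 69.5 in vehicle livers. The vehicle arrays of Ifit2 were close together, and the fold was 10.2 (log2 change 3.35 ± 0.46, adjusted p = 9.05e-05). Ifit3 was 7.52-fold higher (2.91 ± 0.58, adjusted p = 0.0135). Near-identical copies such as Ifit3b can share probes with Ifit3, and the array may not tell them apart. The calls of Ifit1 and Ifit3 were lost when either of vehicle replicates 2 and 3 or NTS-1 replicates 2 and 4 was left out, with the highest adjusted p at 0.210 and 0.144.

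Oligoadenylate synthetases make the messenger that activates RNase L, which degrades RNA in infected cells. All 3 bright members rose. Oas1a read 1021, 1235, 761 and 1158 in NTS-1 livers, against 232, 91.8 and 172 in vehicle livers. The NTS-1 arrays were tight and lay wholly above vehicle, by 6.66-fold (log2 change 2.74 ± 0.26, adjusted p = 1.89e-07). Oasl2, a synthetase-like protein, read 403, 480, 392 and 369 in NTS-1 livers, against 47.6, 18.6 and 43.8 in vehicle livers. One vehicle array was dim, and with dim values taken as 32 the fold was at least 10.1 (log2 change as measured 3.60 ± 0.48, adjusted p = 9.01e-05). Oasl1, which has been linked to restraint of Irf7 translation, was 7.84-fold higher (2.97 ± 0.59, adjusted p = 0.0135), a call lost without vehicle replicate 2 or NTS-1 replicate 2 (highest adjusted p 0.163). Oas1b, Oas2 and Oas3 lay at or near the floor on all 7 arrays, so that no change of theirs could be seen here.

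The ISG15 system tags proteins during the interferon response. Usp18, the protease that removes the tag and also brakes the interferon receptor, read 1752, 3706, 1753 and 2389 in NTS-1 livers, against 209, 205 and 364 in vehicle livers. All NTS-1 values were well above all vehicle values, with a fold of 9.14 (log2 change 3.19 ± 0.58, adjusted p = 0.00526, or 0.0573 without vehicle replicate 2). Isg15 itself was on a probe set that the annotation shares between Isg15 and the predicted gene Gm9706, which was left unnamed. A probe set given to Gm9706 alone read 613, 408, 279 and 386 in NTS-1 livers, against 233, 138 and 173 in vehicle livers. Gm9706 was thus wholly higher by 2.29-fold (log2 change 1.19 ± 0.18, adjusted p = 6.53e-04), and what part of this reading came from Isg15 RNA was not tested. Of the enzymes that attach the tag, Herc6 (1.61 ± 0.54, adjusted p = 0.656) and Uba7 (0.93 ± 0.37, adjusted p = 0.915) were wholly higher in NTS-1 but did not pass.

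The list of interferon-inducible GTPases, enzymes that attack intracellular pathogens, had 10 members tested. Of these 8 (80.0%) were wholly higher in NTS-1, against 1.8% of all genes tested. The median log2 change of the 10 was 1.15, yet 1 passed. That gene, Mx2, was dim on all 7 arrays, overlapped between groups and lost its call without vehicle replicate 1 (adjusted p = 0.0959). Gbp6 read 4746, 4527, 3183 and 5189 in NTS-1 livers, against 1966, 593 and 828 in vehicle livers. Vehicle replicate 1 was the nearest to the NTS-1 arrays, and the change of 2.13 ± 0.81 had an adjusted p of 0.842. Gbp7 read 865, 915, 840 and 851 in NTS-1 livers, against 367, 285 and 350 in vehicle livers. These 2 sets of arrays were each tight, and the same change of 1.38 failed in the fit over all groups (SE 0.59, adjusted p = 0.997) and passed in the fit of the 7 arrays alone. Gbp3 and Irgm1 were wholly higher too, with log2 changes of 1.68 ± 0.58 and 1.34 ± 0.62 that did not pass. Mx1, a known antiviral GTPase, lay at the floor.

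**Figure D2:**
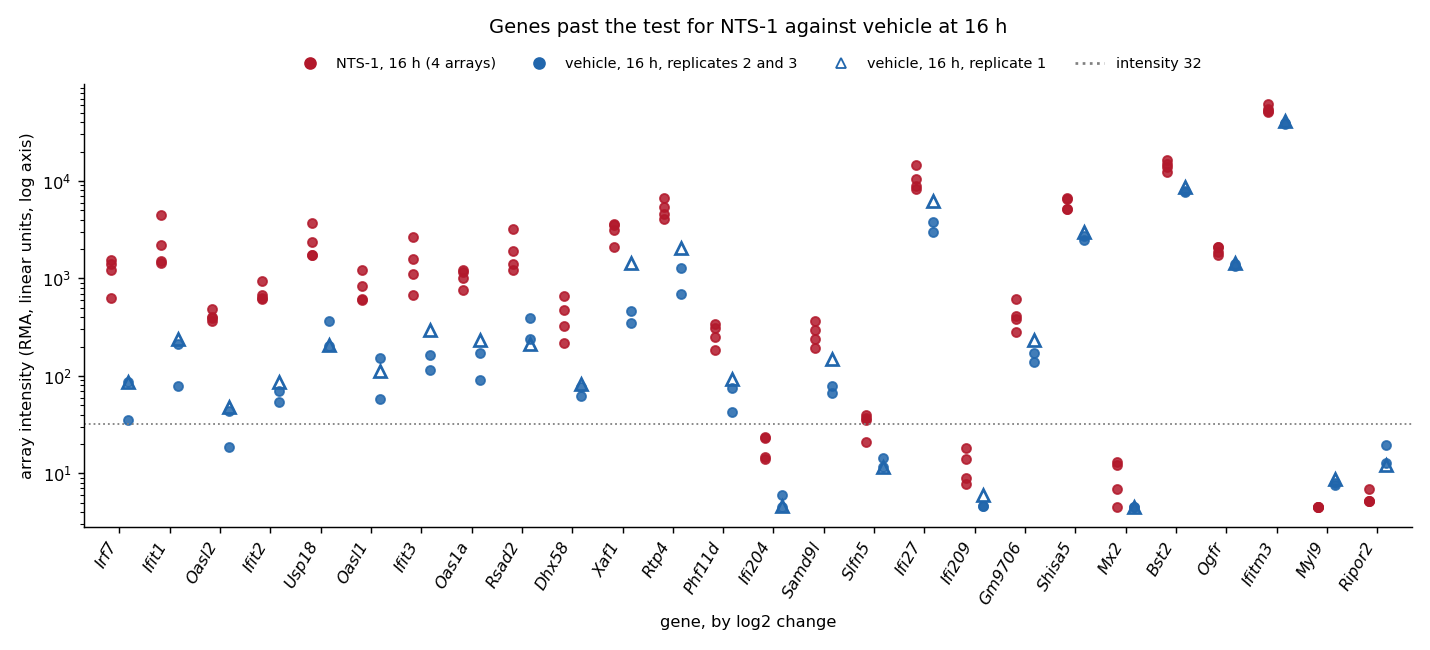
Array intensity (log axis) of the 26 genes past the test at 16 h, for the 4 NTS-1 arrays (red, left of each pair) and the 3 vehicle arrays (blue, right), with vehicle replicate 1 as an open triangle. The NTS-1 points of 23 of the 24 genes that rose lie above every vehicle point, Mx2 being the exception, and 5 of the 26 genes lie under the dotted line at 32 on all 7 arrays.

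Among 36 other interferon-stimulated effectors tested 10 rose, and 27 (75.0%) lay wholly higher in NTS-1, with a median log2 change of 0.93 over the 36. Of all genes tested 0.21% rose and 1.8% lay wholly higher. Rsad2, the antiviral enzyme viperin, read 1209, 3227, 1391 and 1891 in NTS-1 livers, against 213, 240 and 395 in vehicle livers. That is 6.57-fold higher (log2 change 2.72 ± 0.46, adjusted p = 0.00185), and 2 further probe sets reached 32 on all 4 NTS-1 arrays and on 0 of 3 vehicle arrays. Xaf1, a pro-apoptotic factor, read 3112, 3562, 2095 and 3652 in NTS-1 livers, against 1425, 353 and 469 in vehicle livers. Vehicle replicate 1 was the highest vehicle array, and the fold of 4.91 became 7.46 without it. Rtp4, a chaperone for receptors, was 4.19-fold higher (adjusted p = 0.0226), with vehicle values of 2038, 688 and 1278 that again put replicate 1 highest. The Xaf1 and Rtp4 calls were lost when either of vehicle replicates 2 and 3 or NTS-1 replicates 2 and 4 was left out, with the highest adjusted p at 0.195 and 0.276. They were also lost when a gene's probe sets were averaged, and the second probe set of each was dim.

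Ifitm3, a membrane protein that blocks virus entry, had the smallest log2 change of the 24 genes that rose. It read 52751, 61893, 54153.5 and 50498.5 in NTS-1 livers, against 41166, 39569.5 and 38817 in vehicle livers. Both groups were tight, and the 1.37-fold difference passed (log2 change 0.46 ± 0.08, adjusted p = 0.00385). Bst2, the tether that holds budding viruses, was 1.78-fold higher (0.83 ± 0.13, adjusted p = 6.67e-04), and Shisa5, an apoptosis-related membrane protein, 2.15-fold (1.10 ± 0.17, adjusted p = 5.11e-04). Ifi27, a mitochondrial and nuclear-envelope protein, was 2.48-fold higher (1.31 ± 0.25, adjusted p = 0.00869), and Phf11d, a PHD-finger protein, 3.98-fold (1.99 ± 0.24, adjusted p = 2.01e-05). Outside the lists, Samd9l, an antiviral restriction factor, was 2.90-fold higher (1.54 ± 0.27, adjusted p = 0.00385), and Ogfr, the opioid growth factor receptor, 1.39-fold (0.48 ± 0.10, adjusted p = 0.0148). The calls of Samd9l, Ifi27 and Ogfr were lost without vehicle replicate 2 and without vehicle replicate 3, those of Ifi27 and Ogfr also without NTS-1 replicate 2, and that of Ogfr also without NTS-1 replicate 4. Their highest adjusted p was 0.078 for Samd9l, 0.131 for Ifi27 and 0.128 for Ogfr. Slfn5, a member of the schlafen family, was dim in vehicle and reached 32 on 3 of 4 NTS-1 arrays (log2 change as measured 1.36 ± 0.22, adjusted p = 0.00122). With dim values taken as 32 the fold was at least 1.12, and its call was lost. The other probe sets of Slfn5 lay at or near the floor in both groups. Ifi204 and Ifi209, of the p200 family, passed but were dim on all 7 arrays, so no fold is given. The 2 genes that fell, Myl9, a myosin light chain, and Ripor2, a regulator of RhoA, were also dim on all 7 arrays, with the highest reading at 19.5.

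Cmpk2, a mitochondrial nucleotide kinase, lay just outside the threshold. It read 823, 924, 684 and 932 in NTS-1 livers, against 245, 160 and 373 in vehicle livers, wholly apart (log2 change 1.77 ± 0.40, adjusted p = 0.0577). Ifi27l2a, a relative of Ifi27, read 6997, 8036, 7044 and 12010 in NTS-1 livers, against 2791, 282 and 2887 in vehicle livers. Here vehicle replicate 2 was the array that differed, and the change was 2.66 ± 0.63 (adjusted p = 0.077, or 0.0305 without vehicle replicate 1). Chemokines that draw T cells, Cxcl10 and Cxcl9, were wholly higher in NTS-1 without passing. Cxcl10 read 1005, 1105, 2008 and 795 in NTS-1 livers, against 241, 147 and 397 in vehicle livers (log2 change 2.26 ± 0.72, adjusted p = 0.524). Cxcl9 had a log2 change of 1.22 ± 0.53 (adjusted p = 1). They were the only 2 of 11 cytokines and chemokines tested (18.2%) that lay wholly higher in NTS-1, where all genes tested gave 206 (1.8%).

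No gene of class I antigen presentation passed the test, though most leaned higher in NTS-1. Of 12 members of the class I and immunoproteasome list 0 passed, 11 had a positive log2 change and 3 (25.0%) lay wholly higher in NTS-1, with a median log2 change of 0.29. An unadjusted p under 0.05 was found for 3 of the 12. Over all 11431 genes tested, 5185 had a positive change, 206 (1.8%) lay wholly higher and 479 had an unadjusted p under 0.05. H2-K1, a classical class I chain, read 20234, 25589, 13489 and 21184 in NTS-1 livers, against 23288, 19112 and 16645 in vehicle livers. The groups overlapped throughout (log2 change 0.01 ± 0.28). B2m, the shared light chain, differed by 0.03 ± 0.06. The proteasome subunits Psmb8 (0.80 ± 0.33, adjusted p = 0.964) and Psmb10 (0.51 ± 0.23, adjusted p = 1) were wholly higher, while Psmb9 overlapped. Psmb8 had a change of 1.04 without vehicle replicate 1 (adjusted p = 0.697).

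Interferon-responsive genes often carry the element that ISGF3 and IRF factors bind, and members that rose together were therefore searched for its core. The core searched was GAAA followed, after any 2 bases, by GAAA again, on both strands of the 250 bases before the start of each gene in the RefSeq promoter table (build GRCm38.p6). On the other strand it reads TTTC, any 2 bases and TTTC, and matches may overlap. A window was found for 17 of the 24 genes that rose, and 6 of the 17 (35.3%) held a match. Over all 9296 tested genes with a window 298 (3.21%) did, and over all 27025 genes with one 936 (3.46%). Members of the interferon lists that were tested and did not pass held one in 17 of 55 windows (30.9%). A longer form, in which CT follows the second GAAA, was found in 4 of the 17 (23.5%), in 9 of the 55 (16.4%) and in 30 of the 9296 (0.323%). A match is a run of letters and says nothing of binding here. The 6 matching stretches are shown because they belong to genes described above. They are given along the gene's own strand, with matched bases in capitals.
Oas1a: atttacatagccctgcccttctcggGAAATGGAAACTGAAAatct
Bst2: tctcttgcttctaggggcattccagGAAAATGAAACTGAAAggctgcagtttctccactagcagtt
Slfn5: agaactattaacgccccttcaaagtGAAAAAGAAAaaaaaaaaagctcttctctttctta
Rsad2: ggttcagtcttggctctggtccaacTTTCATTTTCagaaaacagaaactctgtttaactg
Ifit3: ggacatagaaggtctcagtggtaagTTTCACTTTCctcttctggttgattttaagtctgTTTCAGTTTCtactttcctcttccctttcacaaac
Ifit1: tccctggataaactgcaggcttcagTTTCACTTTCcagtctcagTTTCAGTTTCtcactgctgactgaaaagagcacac

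The stretches lie at chr5:120907526-120907570 on the minus strand for Oas1a, chr8:71537562-71537627 on the minus strand for Bst2 and chr11:82951922-82951981 on the plus strand for Slfn5. That of Rsad2 lies at chr12:26456538-26456597 on the minus strand, that of Ifit3 at chr19:34583348-34583441 and that of Ifit1 at chr19:34640760-34640838, both on the plus strand. Oas1a and Bst2 each held 2 overlapping matches on the gene's strand. Those of Oas1a spanned bases 20 to 5 before the start and those of Bst2 bases 130 to 115. Ifit3 and Ifit1 each held 2 separate matches on the other strand, between bases 156 and 113 and between bases 104 and 76 before the start. All stretches lie upstream of the annotated start.

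Vehicle replicate 1 read high for neutrophil genes and for some of the acute-phase genes. S100a8, a calcium-binding protein of neutrophils, read 135, 204, 185 and 543 in NTS-1 livers, against 16166, 164 and 352 in vehicle livers. S100a9, its partner, read 38.5, 54.5, 55.4 and 177 in NTS-1 livers, against 9532, 47.1 and 109 in vehicle livers. In both genes vehicle replicate 1 alone was high and the other vehicle arrays lay among the NTS-1 arrays. The granule genes Camp and Ngp read 968 and 1214 on vehicle replicate 1 and lay at the floor on the other 6 arrays. Of the enzymes of early granules, Elane read 413, Prtn3 447 and Mpo 255 on it, and each was dim on the other 6. None of the other 36 single-dose arrays reached it for these 7 genes, the highest being 951 for S100a8, on a TS-2 array at 72 h.

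Orm2 and Lcn2, acute-phase genes of the liver, were high on the same array. Orm2 read 410, 268, 276 and 215 in NTS-1 livers, against 11122, 358 and 326 in vehicle livers. Lcn2 read 439, 301, 301 and 301 in NTS-1 livers, against 8019, 106 and 851 in vehicle livers. Vehicle replicate 1 alone set the direction of the change in Lcn2, which was -1.44 ± 0.85 with it and 0.14 without it. The platelet genes Pf4 and Ppbp read 2246 and 365 on vehicle replicate 1, against 228 and 6.20 on replicate 2 and 396 and 9.40 on replicate 3. Saa1 read 50558 on it, against 8443 and 20862 on the other vehicle arrays. Mean log2 level over the 28 measured members of the acute-phase list was 12.13 on replicate 1, against 11.41 and 11.58 on the other vehicle arrays. The level was 11.34 to 11.56 on the NTS-1 arrays. The list did not move evenly. Over its 27 members tested, the median log2 difference of replicate 1 from the mean of the other vehicle arrays was 0.0. Fgb, a fibrinogen chain, read 53828 on replicate 1, against 73574 and 58471 on the others, and Crp, C-reactive protein, read 18679, against 22056 and 20495. Hepatocyte markers were at 14.9 on it and at 15.2 on both others. What set this array apart was not tested.

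**Figure D3:**
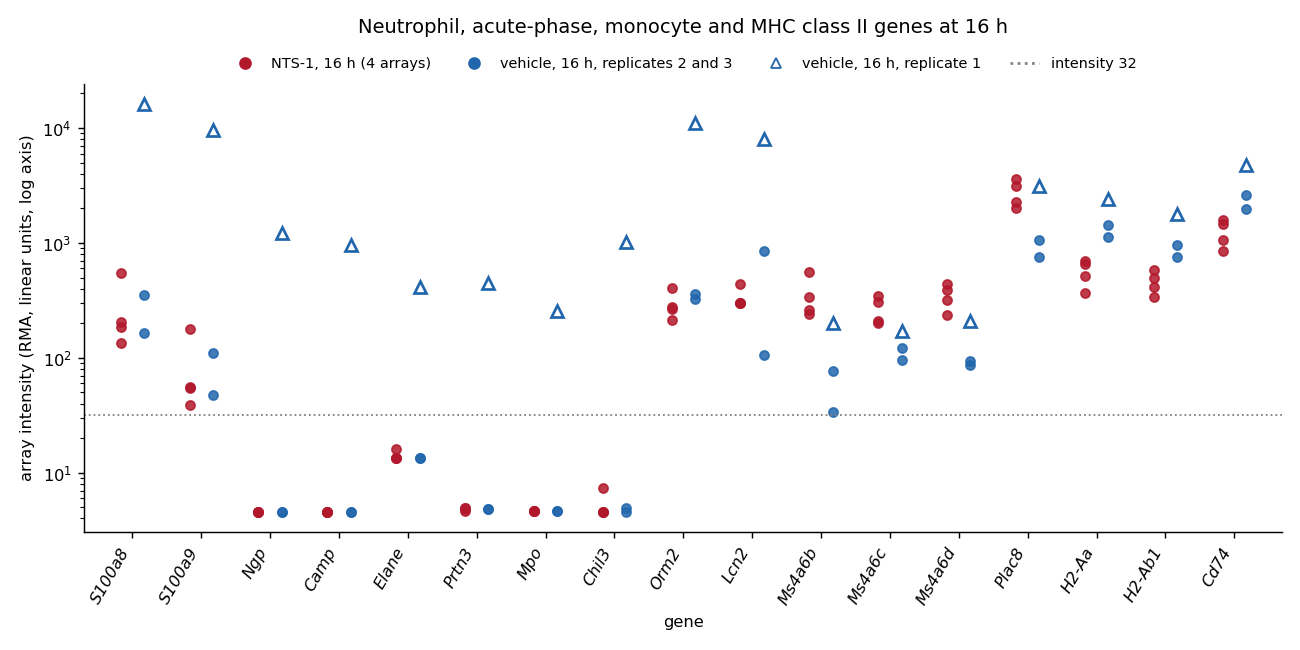
Array intensity (log axis) of 17 neutrophil, acute-phase, monocyte and MHC class II genes for the 4 NTS-1 arrays (red, left) and the 3 vehicle arrays (blue, right), with vehicle replicate 1 as an open triangle. For S100a8 to Lcn2 that triangle lies far above the other 6 arrays, while for Ms4a6b to Plac8 it lies above the other vehicle arrays and near the NTS-1 arrays.

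No neutrophil gene was called at 16 h. Of 17 listed neutrophil markers 14 were measured and 4 passed the filter, and their median log2 change was -2.14 with vehicle replicate 1 and -0.04 without it. Of the 14, 8 reached 32 on vehicle replicate 1 and 2 did so on every other array of the 7. Mean log2 level over the 14 was 2.88, 2.96, 2.95 and 3.20 on the NTS-1 arrays and 6.71, 2.92 and 3.08 on the vehicle arrays. The difference in neutrophil readings thus lay with 1 vehicle array.

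Without vehicle replicate 1, 41 genes (0.359%) passed, 34 (0.297%) higher and 7 (0.0612%) lower. These included 25 of the 26 called with it, Mx2 being lost, and 16 that were not. The 7 lower genes included Myl9 and Ripor2, which had also passed with it. Of the genes gained, only some that were higher are described here. Of the 7 monocyte markers tested, 0 had passed with it and 4 rose without it, and the list's median was 1.27 without it and 0.99 with it. With it, 5 of the 7 had a positive change, and the median over all 9 measured members was 0.07. The list's members Ccr2, Cx3cr1 and Itgam were dim on every single-dose array, with highest readings of 17.1, 5.10 and 4.59. Such members could show neither a rise nor its absence, so the 4 genes that rose do not speak for the whole list. Lyz2, a bright member, read 13311 on vehicle replicate 1, against 3602 and 2068 on replicates 2 and 3. No other single-dose array reached replicate 1 for Lyz2. Plac8, expressed by monocytes and other myeloid cells, read 2033, 2265, 3130 and 3639 in NTS-1 livers, against 3134, 758 and 1053 in vehicle livers. Replicate 1 lay within the NTS-1 range and the other vehicle arrays below it. The fold was 1.98 with replicate 1 (adjusted p = 0.672) and 3.01 without it (adjusted p = 0.00568).

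In Ms4a6b, Ms4a6c and Ms4a6d, membrane proteins of myeloid and lymphoid cells, replicate 1 was the highest vehicle array but lay below every NTS-1 array. Ms4a6d read 237, 386, 317 and 436 in NTS-1 livers, against 210, 86.7 and 94.5 in vehicle livers. The groups were apart even with replicate 1, and the fold was 2.80 with it (adjusted p = 0.172) and 3.70 without it (adjusted p = 0.035). Ms4a6b had a log2 change of 2.04 with replicate 1 (adjusted p = 0.063) and 2.70 without it (adjusted p = 0.00276). Fcgr1, the high-affinity IgG receptor of monocytes and macrophages, read 243, 128, 218 and 115 in NTS-1 livers, against 170, 33.2 and 47.3 in vehicle livers. It overlapped with replicate 1 (adjusted p = 0.672) and was 4.22-fold higher without it (adjusted p = 0.0327). In whole liver, more cells of a type and more RNA per cell cannot be told apart.

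Mean log2 level over the 9 measured monocyte markers was 6.16, 5.80, 6.43 and 6.79 on the NTS-1 arrays, and 7.14, 5.29 and 5.31 on the vehicle arrays. At 8 and 72 h the 6 vehicle arrays lay between 5.04 and 5.29, beside vehicle replicates 2 and 3. Chil3, a monocyte and neutrophil gene of the list, was dim on all arrays but vehicle replicate 1, where it read 1026. Over 18 Kupffer cell and macrophage markers the level was 8.91, 9.08, 9.08 and 8.83 on the NTS-1 arrays and 9.50, 8.40 and 8.46 on the vehicle arrays, so that 1 vehicle array lay above NTS-1 and both others below. Ifi202b, an interferon-inducible gene of the p200 family, and Trim30a, an interferon-inducible brake on inflammatory signalling, were also gained without replicate 1. Ifi202b read 1368, 1710, 1710 and 2393 in NTS-1 livers, against 1218, 153 and 430 in vehicle livers, with a fold of 4.08 with replicate 1 (adjusted p = 0.0577) and 6.85 without it (adjusted p = 8.82e-04). Trim30a was 2.66-fold higher with it (adjusted p = 0.0577) and 3.23-fold without it (adjusted p = 0.0207). Plasmacytoid dendritic cell markers, of which 4 were measured, did not reach 32 on any of the 7 arrays.

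**Figure D4:**
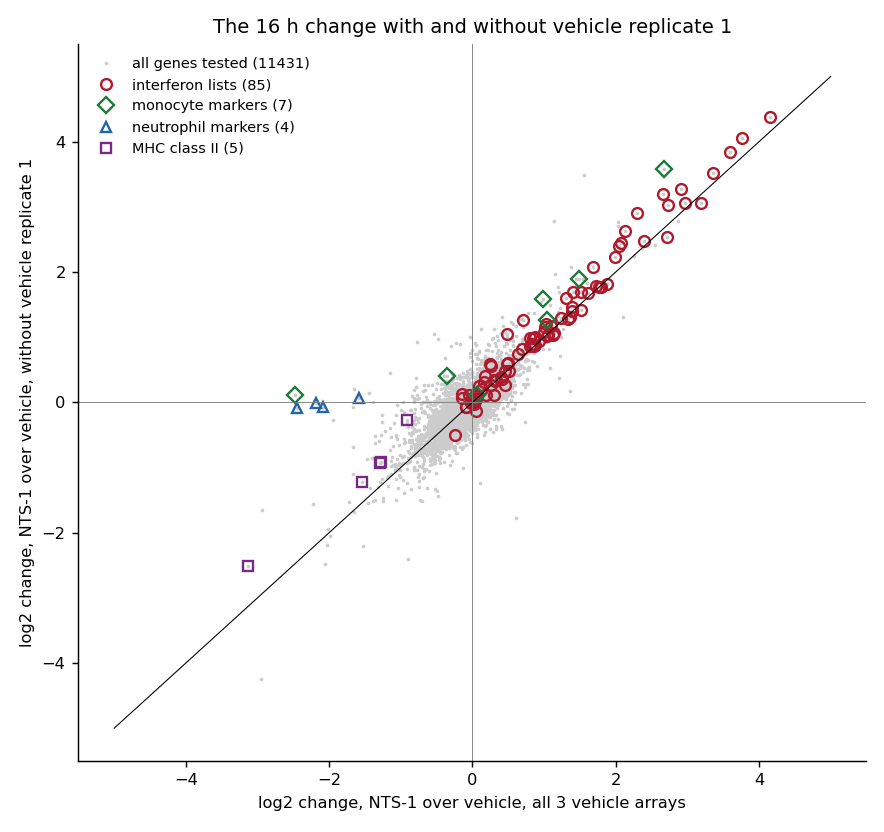
Log2 change of NTS-1 over vehicle at 16 h with all 3 vehicle arrays (horizontal axis) against the change without vehicle replicate 1 (vertical axis), for the 11431 genes tested. Neutrophil markers move from near -2 to near 0, monocyte markers and most interferon list members lie above the diagonal of equal change, and MHC class II genes stay below 0.

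MHC class II genes, which present antigen in dendritic cells, macrophages and B cells, were lower in NTS-1 than in vehicle in all 5 members tested, and 4 of the 5 lay wholly apart, where 256 of all genes tested (2.24%) were wholly lower. H2-Aa, a class II chain, read 517, 650, 697 and 367 in NTS-1 livers, against 2427, 1423 and 1117 in vehicle livers. The change of -1.54 ± 0.52 did not pass (adjusted p = 0.697) and was -1.22 without vehicle replicate 1. Cd74, the chain that chaperones class II, had a change of -1.27 ± 0.47 (adjusted p = 0.84), and H2-Ab1 one of -1.28 ± 0.53 (adjusted p = 0.969). The vehicle arrays of 16 h were themselves high. Mean log2 level over the 6 members was 6.47, 6.19, 7.01 and 5.71 on the NTS-1 arrays and 8.47, 7.49 and 7.15 on the vehicle arrays of 16 h, while the 6 vehicle arrays of 8 and 72 h lay between 5.47 and 6.54. TS-2 livers at 16 h read 510, 466 and 808 for H2-Aa, within the range of the NTS-1 livers but for the highest.

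For most genes that rose, the estimated change was smaller at 16 h than at 8 h. The 8 h comparison uses other mice throughout. Of the 24 genes that rose at 16 h, 22 had also passed at 8 h, Ifitm3 and Ifi27 not, and for 21 the estimated change was smaller at 16 h. Over all genes tested the median difference, 16 h minus 8 h, was -0.01. The share of all genes that passed at 8 h is not given here, so the 22 cannot be set beside it. A test of the difference of the 2 changes passed for 19 of 11431 genes (0.166%), all with the lower change at 16 h, and 5 of the 24 were among them. Of the 19, 9 belong to the interferon lists, which hold 85 of the 11431 genes tested. Of the 19, 18 had risen at 8 h. A lower change at 16 h than at 8 h favours genes with a high change at 8 h, so that count is no separate result. The count was 12 without vehicle replicate 1 and 8 with genes kept that reached 32 on at least 3 arrays. In both groups at 16 h, 10 of the 19 were dim.

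Gm9706 differed most clearly between the times. At 8 h it read 3285, 2237 and 1994 in NTS-1 livers, against 121, 163 and 143 in vehicle livers. Its 16 h readings, given above, were far lower in NTS-1 and little different in vehicle, and the difference of the log2 changes was -2.92 ± 0.27 (adjusted p = 1.94e-07). Phf11d read 1101, 1298 and 836 in NTS-1 livers at 8 h, against 60.2, 58.8 and 56.6 in vehicle livers. Its log2 change was 4.18 ± 0.26 at 8 h and 1.99 ± 0.24 at 16 h, a difference of -2.19 ± 0.35 (adjusted p = 0.00331). Samd9l read 518, 865 and 595 in NTS-1 livers at 8 h, against 40.8, 37.01 and 52.0 in vehicle livers, and its difference was -2.37 ± 0.40 (adjusted p = 0.0037). Its vehicle readings of 149, 78.1 and 66.3 at 16 h also lay above those of 8 h.

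Trim30a and Cmpk2, which missed the threshold at 16 h, had strong changes at 8 h. Trim30a read 791, 1068 and 782 in NTS-1 livers at 8 h, against 38.6, 53.1 and 75.7 in vehicle livers, and the difference of changes was -2.61 ± 0.47 (adjusted p = 0.00675). Cmpk2 read 1354, 2106 and 1358 in NTS-1 livers at 8 h, against 43.1, 103 and 76.1 in vehicle livers (difference -2.73 ± 0.59, adjusted p = 0.0479). In both, NTS-1 levels were lower and vehicle levels higher at 16 h than at 8 h. Irf7 stood at the other end. It read 1438, 1628 and 1186 in NTS-1 livers at 8 h, against 55.9, 70.5 and 66.6 in vehicle livers, close to its readings at 16 h. The difference of its changes was -0.30 ± 0.55 (adjusted p = 1). Bst2, Ifitm3 and Ifi27 had estimated changes slightly larger at 16 h, by 0.12 ± 0.19, 0.17 ± 0.12 and 0.26 ± 0.37, and none of these differences passed (adjusted p = 1 for each).

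**Figure D5:**
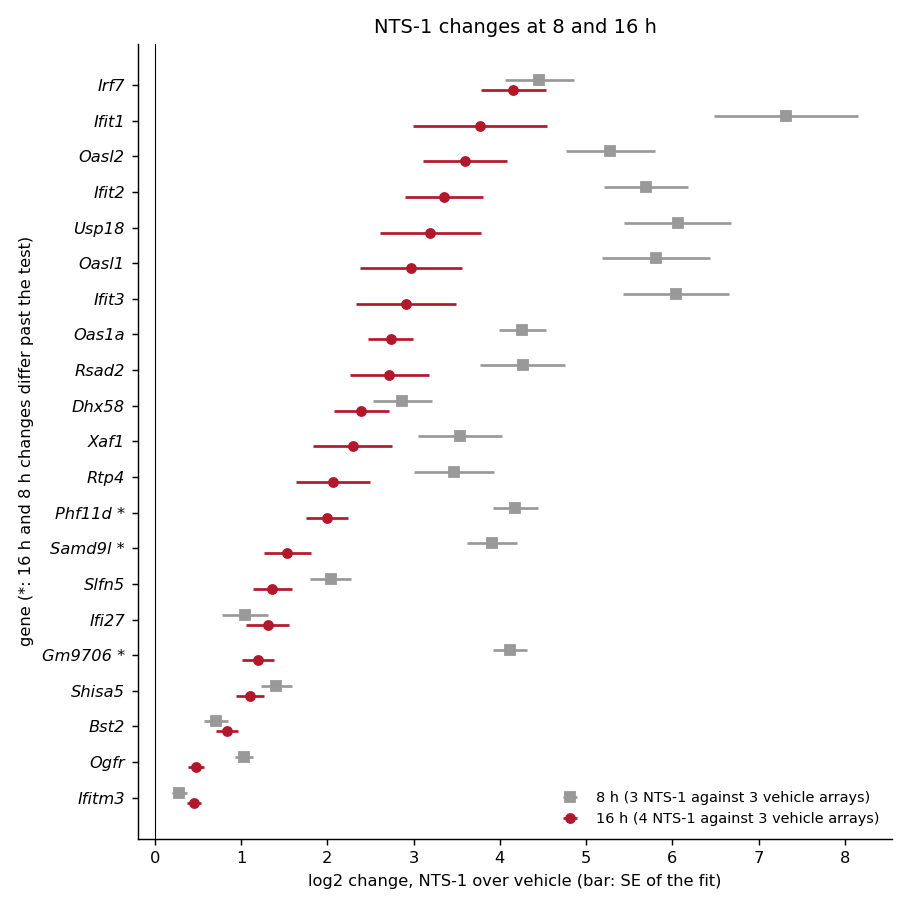
Log2 change of NTS-1 over vehicle at 8 h (grey squares) and 16 h (red circles), with the SE of the fit as bars, for the 21 genes that rose at 16 h and reached 32 on at least 1 of the 7 arrays. The 3 genes marked with an asterisk differ between the times past the test, and Irf7, Bst2, Ifitm3 and Ifi27 have near-equal changes.

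The same NTS-1 arrays were set against the other gapmers at 16 h, so these comparisons share the NTS-1 arrays with the one against vehicle and are given as values side by side. Against TS-2, 47 genes (0.411%) were higher in NTS-1 and 2 (0.0175%) lower, 0.429% of the genes tested in all. Against HTS-3, 911 genes (7.97%) were higher and 1193 (10.4%) lower, 18.4% in all. The totals were 28 without TS-2 replicate 2, against 49, and 1384 without HTS-3 replicate 4, against 2104. Of the 85 interferon list members tested, 29 were higher in NTS-1 than in TS-2, with a median log2 difference of 1.13. Against HTS-3, 37 were higher and 2 lower, with a median of 0.81. Mean log2 level over the lists was 6.88 to 6.98 in TS-2 livers and 6.97 to 7.56 in HTS-3 livers, below the lowest NTS-1 array at 8.08.

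Irf7 read 55.9, 59.6 and 45.6 in TS-2 livers and 106, 48.1, 54.1 and 110 in HTS-3 livers, near the vehicle readings. NTS-1 was 21.3-fold above TS-2 (adjusted p = 1.55e-08) and 15.3-fold above HTS-3 (adjusted p = 2.09e-09). Usp18 read 95.7, 98.5 and 77.1 in TS-2 livers and 280, 170, 134 and 487 in HTS-3 livers, all under the lowest NTS-1 reading. Zbp1, which missed the threshold against vehicle, read 34.0, 84.6 and 90.8 in TS-2 livers and 182, 27.6, 100 and 35.3 in HTS-3 livers. Its log2 difference was 3.69 ± 0.60 against TS-2 (adjusted p = 5.74e-04) and 3.67 ± 0.55 against HTS-3 (adjusted p = 1.46e-05). Cxcl9 was higher in NTS-1 by 2.40 ± 0.53 than in TS-2 (adjusted p = 0.0278) and by 2.64 ± 0.49 than in HTS-3 (adjusted p = 2.49e-04). Cxcl10 was higher by 2.99 ± 0.67 than in HTS-3 (adjusted p = 0.00179), while 3.00 ± 0.72 against TS-2 did not pass (adjusted p = 0.061).

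All 24 genes that rose against vehicle were also higher in NTS-1 than in TS-2 and than in HTS-3. Of the 7 monocyte markers tested, 4 were higher in NTS-1 than in TS-2 and 4 than in HTS-3. No vehicle array enters these differences, though vehicle replicate 1 is among the arrays behind the shared estimate of spread. Plac8 read 909, 637 and 695 in TS-2 livers and 946, 888, 515 and 541 in HTS-3 livers, all below the lowest NTS-1 reading of 2033. Afdn and Hamp, among the genes higher in NTS-1 than in HTS-3 with the lowest adjusted p, did not pass against vehicle (adjusted p = 1 for each). Afdn, a junction scaffold, read 627, 520, 516 and 525 in NTS-1 livers, against 7.98, 7.98, 7.98 and 8.20 in HTS-3 livers. HTS-3 was dim throughout, so NTS-1 was at least 17.0-fold higher (adjusted p = 1.76e-15), while the NTS-1 arrays lay within or beside the vehicle readings of 460, 771 and 573. Hamp, the iron hormone hepcidin, read 56994, 68386, 62174 and 62338 in NTS-1 livers, against 12226, 18918, 16449 and 17890 in HTS-3 livers. Its log2 difference from HTS-3 was 1.95 ± 0.09 (adjusted p = 1.41e-14), and that from vehicle was 0.11 ± 0.10. The 2 genes lower in NTS-1 than in TS-2 were Miga1, which was dim in both, and 4932438A13Rik.

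Lists of liver function and of cell stress held no gene that passed. Medians were 0.04 for 12 hepatocyte markers, 0.01 for 18 cytochrome P450 genes, 0.02 for 15 genes of bile acid synthesis and transport, and -0.02 for 12 NRF2 targets. Endoplasmic reticulum folding genes had a median of 0.12 with vehicle replicate 1 and of -0.16 without it. Heat shock genes had a median of 0.28, and 10 of 11 had a positive change. Their mean log2 level was 11.77 to 12.23 on the NTS-1 arrays and 11.21 to 11.49 on the vehicle arrays. It averaged 12.08 in TS-2 livers and 12.07 in HTS-3 livers at 16 h. Of the 11, 2 (18.2%) lay wholly higher in NTS-1, where all genes tested gave 206 (1.8%). Of these Hspa1b read 3009, 5473, 4341 and 3298 in NTS-1 livers, against 1770, 1807 and 673 in vehicle livers (log2 change 1.60 ± 0.58, adjusted p = 0.807). Dnajb1, a co-chaperone, had a change of 0.82 ± 0.21 (adjusted p = 0.169), and leaving out vehicle replicate 1 did not move it. Genes of RNase H and RNA decay had a median of 0.07, those encoding gapmer-binding and paraspeckle proteins one of -0.09, and those of oligonucleotide uptake and lysosome one of -0.01.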

How the data were processed

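Per the labels' protocols, RNA from each mouse's liver was purified on RNeasy columns, amplified in a single round with an Enzo kit and read on 1 Affymetrix array. The authors deposited intensity values for 45101 probe sets on a linear scale, made with RMA per the submitters' processing notes. No source used here states the RMA version or settings. Values were turned to log2 for all fits. The number of arrays limits precision.

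Probe sets were named from the platform annotation, and only the 34958 with a single gene were used, which left out 932 with several and 9211 with none. Of those used, 34754 were matched by gene ID to GRCm38.p6. For each of 18194 genes the probe set with the highest mean over the 37 single-dose arrays was taken. Genes at or above the 40th percentile of the gene values of an array on at least 3 arrays were tested, 11431 in all. Taken over all probe sets that percentile is the floor and would remove nothing, which is the setting without a filter.

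The test was limma 3.58.1 in R 4.3.3, 1 model over the 11 single-dose groups, with empirical Bayes moderation and Benjamini-Hochberg adjustment over all genes of a comparison at 0.05. SE values are from this fit. It was tested on simulated data. Comparisons were NTS-1 against vehicle at 16 h, that change minus the one at 8 h, and NTS-1 against TS-2 and HTS-3 at 16 h. Alternatives were the mean of probe sets, no filter, a filter at 32, values under 32 set to 32, quantile normalization, array weights, the compared groups alone, a trended robust prior, a replicate block, the Actb 3'/5' ratio as covariate, leaving out an HTS-3 array at 8 h whose title and description give different times, and leaving out each array. Whether equal replicate numbers pair mice was checked by the correlation of deviations from group means, which was 0.04, 0.08 and -0.01 for the 3 numbers, so they were not taken as pairs.

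Named genes were all that passed at 16 h, all called members of 43 lists with up to 4 others of the largest change at 32 or more on 3 arrays, the 8 genes in each direction in which vehicle replicate 1 differed most, genes whose call changed without it, and, for the other comparisons, the 5 genes higher and the 5 lower with the lowest adjusted p, with further list members. The members, lists and tests were chosen with earlier results of these data known. Not every gene covered by the rule for naming genes is described above. The 2-week arrays were not used here.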

Additional observations from a re-analysis of the deposited data

Results flagged for a closer look

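Among 47 genes examined in the 4 NTS-1 arrays at 16 h, 3 had an array far from the others by Dixon's criterion at 95%, which chance alone gives in about 1 of 20 groups. Slfn5 was low on replicate 1 at an intensity of 21.1, Ripor2 was high on replicate 1 at 6.83, a dim reading, and Lcn2 was high on replicate 1 at 439. The other NTS-1 arrays at 16 h all read 300.75 for Lcn2, so its flag rests on ties. The same value was read on NTS-1 replicate 2 and vehicle replicate 1 at 8 h.

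The NTS-1 change differed between 16 and 8 h past the test in 19 genes, each with a lower log2 change at 16 h. The differences, 16 h minus 8 h, were -2.92 for Gm9706, -2.29 for Ifi209, -1.98 for Mx2, -2.19 for Phf11d and -1.45 for Oas1c. They were -3.23 for Ddx60, -2.37 for Samd9l, -1.27 for Slfn9, -0.83 for Myl9 and -2.61 for Trim30a. They were -1.96 for Nrg4, -2.75 for Gm11772, -2.21 for Il15, -1.52 for Sp100 and -1.02 for Gzmb. They were -1.82 for Ms4a6c, -1.33 for Mx1, -2.73 for Cmpk2 and -2.55 for Ifit1bl1. Myl9 was at the floor in both groups at 8 h, and its difference lies in vehicle readings of 7.64 to 8.81 at 16 h, all dim. Oas1c, Nrg4, Sp100, Gzmb and Mx1 were likewise dim in both groups at both times, so their differences carry no fold.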

How the results depend on the processing

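Of 11431 genes tested 26 passed for NTS-1 against vehicle at 16 h. The count was 196 with array weights, 4 in the fit of the compared groups alone, and 18 to 41 when 1 array was left out, highest without vehicle replicate 1 and lowest without vehicle replicate 2. Of the 26 genes, 15 passed in every fit that left out 1 array. Interferon list members that rose numbered 20, against 44 with array weights, 2 in the compared groups alone and 11 to 21 with 1 array left out. For the 16 h minus 8 h difference the count was 19, against 8 with the filter at 32, 8 with values under 32 set to 32, 64 with array weights, 7 in the compared groups alone and 12 to 22 with 1 array left out. Against TS-2 it was 49, against 160 with array weights and 28 to 52 with 1 array left out. Against HTS-3 it was 2104, against 869 in the compared groups alone, 3382 with the Actb 3'/5' ratio as covariate and 1384 to 2434 with 1 array left out. The replicate block gave 26, 14, 48 and 2077 calls for the 4 comparisons, the first with the same 26 genes, though the numbers do not pair mice. The change of Lcn2 lay between -2.98 and 0.14 with 1 array left out, and turned positive without vehicle replicate 1. The number of arrays and readings near the floor limit what could be seen. The cause of these shifts was not tested.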

Other observations

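The mean log2 level of the interferon list members in vehicle livers was 6.71 to 7.11 at 8 h, 7.04 to 7.43 at 16 h and 6.74 to 7.08 at 72 h, with 3 arrays at each time and no test made between times. Among the NTS-1 arrays at 16 h replicate 2 had the highest level, 8.46, and it was also the highest for Ifit1, Ifit2, Ifit3, Usp18 and Rsad2.

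Of 15 stellate cell and matrix genes tested, 3 lay wholly lower in NTS-1 and 0 passed, where 256 of all genes tested (2.24%) lay wholly lower. Mean log2 level over the list was 7.45 to 7.61 on the NTS-1 arrays and 7.69 to 7.88 on the vehicle arrays of 16 h. The vehicle arrays of 8 h, at 7.53 to 7.78, and of 72 h, at 7.32 to 7.76, overlapped the NTS-1 range. In TS-2 livers at 16 h the level was 7.60 to 7.99. Reln, a glycoprotein made by stellate cells in liver, read 572, 681, 668 and 681 in NTS-1 livers, against 989, 1066 and 1179 in vehicle livers (log2 change -0.73 ± 0.30, adjusted p = 0.966). Pdgfrb, their growth factor receptor, read 245, 200, 204 and 237 in NTS-1 livers, against 348, 389 and 329 in vehicle livers (-0.68 ± 0.41, adjusted p = 1). Leaving out vehicle replicate 1 gave -0.79 and -0.70.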
